A study of Mus musculus with 4 samples.

Results

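Strong Pitx1 peaks that stood alone were regions with high scores in both hindlimb ChIP libraries and no other shared peak nearby. A replicated peak was the union of peaks that overlapped by at least 1 bp between the deposited lists of the 2 Pitx1 ChIP libraries. It was called strong when its best score lay at or above the 90th percentile of its own list in both, which was 218.0 in replicate 1 and 279.9 in replicate 2. It stood alone when no other replicated peak had its midpoint within 50 kb. Of 10145 replicated peaks on the autosomes, 395 met both conditions and are called lone strong peaks here. The regions were selected on their scores in both libraries and on their spacing, so scores and spacing are given as a description, without a test.

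Hindlimb buds of wild-type embryos at E11.5, from ICR mice (an outbred laboratory stock), were studied by ChIP-seq, in which DNA bound by a protein is pulled down with an antibody and sequenced. The 4 libraries were 2 made with a Pitx1 antibody and 2 of input chromatin that saw no antibody. By the labels, each Pitx1 library pooled 3 independent ChIPs. Only the ChIP libraries had peak lists, of 14753 peaks in replicate 1 and 25027 in replicate 2. Whole buds were used, so peaks of mesenchyme, ectoderm and other cells of the bud cannot be told apart, and nothing in the labels ties the replicates to separate litters. The lists give no read numbers, and the depth behind each peak is unknown. Input signal at the lone strong peaks was not analysed here, and neither was a ChIP with a control antibody.

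Pitx1 is a homeodomain transcription factor of the paired-like family, made in the hindlimb bud and not in the forelimb bud, where it helps to set hindlimb identity and growth. Such factors bind short DNA motifs in enhancers, stretches of regulatory DNA that can act on a gene from far away along the chromosome. Developmental genes are often served by several enhancers spread over one landscape, while others rely on a single distant element. Positions below are on mouse build mm9, counted from 1. No genome or gene annotation of that build was used here, so no gene is assigned to a region.

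The 10 strongest of the lone peaks, by the sum of their ranks in the lists, differed widely in shape and surroundings. At the head was the region on chromosome 17 from 39979780 to 39985898, which scored 3100 in both libraries. Its peaks were 6075 bp wide in replicate 1 and 6056 bp in replicate 2, and no other peak of either list lay within 50 kb. All other lone strong peaks were at most 3140 bp wide in either library, so this region stood apart in width as well as in score. Whether it holds repeated sequence was not tested. The value of 3100 was the highest of each list, and whether it is an upper limit of the scale was not tested either. The equal scores are therefore not taken as agreement between the libraries.

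The region on chromosome 16 from 57694327 to 57696052 scored 1256 in replicate 1 and 1903 in replicate 2. Its peak was 1726 bp wide in replicate 1 and 932 bp in replicate 2. It had no replicated neighbour for 163 kb, yet 3 further peaks of replicate 1 and 3 of replicate 2 lay within 50 kb of it, none of them shared. The region on chromosome 7 from 83921650 to 83923491 had no such company. Its scores were 1003 and 2369, its widths 1842 and 1487 bp, and its midpoints differed by 38.5 bp between the libraries.

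On chromosome 4, the region from 54482179 to 54484673 scored 1865 in replicate 1 and 1561 in replicate 2, with widths of 2495 and 1774 bp. It had rank 2 in replicate 1 and rank 33 in replicate 2, so the libraries placed it differently within the head of their lists. Another lone strong peak followed it 55.8 kb away. The region on chromosome 19 from 14964793 to 14966022 scored 881 and 1985 and was of nearly equal width in both, at 1230 and 1116 bp. The region on chromosome 5 from 134931835 to 134933030 (scores 1325 and 1520) was made of 2 peaks in each library, and its best peaks were only 479 and 558 bp wide.

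Chromosome 10 held a pair among the 10. The region from 99274581 to 99275549 scored 836 in replicate 1 and 2279 in replicate 2, where it had rank 5. The region from 98005911 to 98006926 scored 889 and 1555. Both were compact, with widths of 938 and 896 bp for the first and 985 and 822 bp for the second. The remaining pair were broader in replicate 1 than in replicate 2. On chromosome 4 from 70791760 to 70793489 the widths were 1730 and 1003 bp (scores 790 and 1548), and on chromosome 17 from 44701845 to 44703591 they were 1747 and 1056 bp (scores 670 and 1838). Of these 10 regions, 4 had no other peak of either list within 50 kb and 6 had at least 1.

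**Figure D1:**
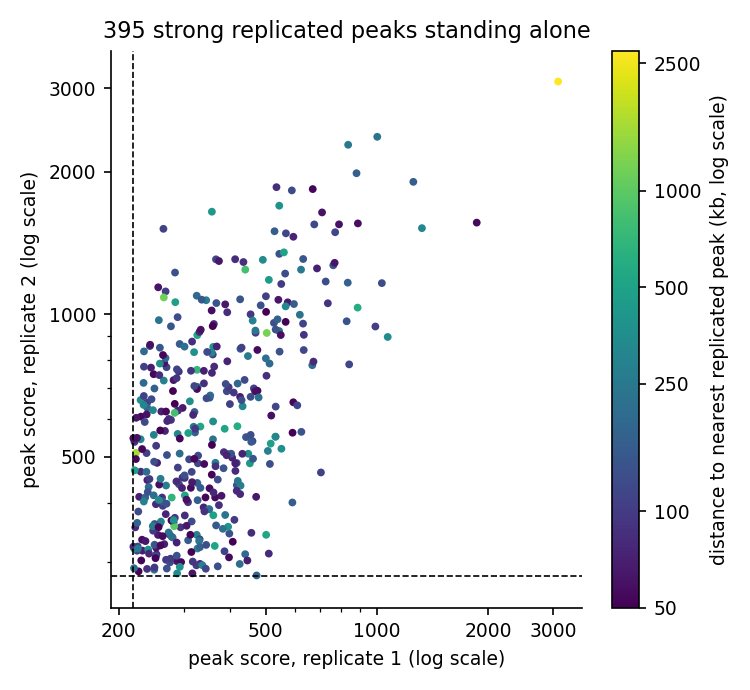
Peak scores of the 395 lone strong peaks in replicate 1 (horizontal, log scale) and replicate 2 (vertical, log scale), with each point coloured by the distance in kb to the nearest replicated peak. The dashed lines are the thresholds of 218.0 and 279.9; the single point at 3100 in both libraries is also the one farthest from any neighbour.

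Most of the lone strong peaks were nearer the thresholds than the head of the list. The median score was 332 in replicate 1 (quartiles 268 and 447) and 556 in replicate 2 (quartiles 398 and 838). Scores of 177 regions (44.8%) were under 2 times the threshold in both libraries, and 8 regions were at 4 times or more in both. Just inside the threshold were the regions starting at 120297469 on chromosome 5 (scores 472 and 281), 76244079 on chromosome 7 (218.9 and 548) and 137325795 on chromosome 7 (218.94 and 323). Just outside were those starting at 112428600 on chromosome 5 (217.7 and 309), 110395165 on chromosome 1 (217.1 and 645) and 93079563 on chromosome 16 (217.1 and 576). The regions on the 2 sides of the threshold were alike in score, so membership there turns on a difference of a few score units.

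Spearman's rho between the scores of the libraries was 0.478 across the 395 regions, 0.528 across the strong peaks with neighbours and 0.559 over all autosomal replicated peaks. The first pair of values is over scores limited by a threshold in both libraries, so they are not comparable with the last. Relative to its own threshold, replicate 2 gave the higher score in 274 regions (69.4%). The share was nearly the same, 69.5%, in strong peaks with neighbours. The ratio of the scores, each divided by its threshold, had a median of 1.23 for replicate 2 over replicate 1 (quartiles 0.941 and 1.74). Its extremes were 4.47 at chromosome 9 from 69195214 to 69196932 (scores 264 and 1515) and 0.463 at chromosome 5 from 120297469 to 120298795 (scores 472 and 281).

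A smaller share of the strong than of the weaker replicated peaks stood alone. Weaker peaks are those below the threshold in at least 1 library. Some scored high in the other, up to 1209 in replicate 2 among weaker lone peaks. Of the 10145 autosomal replicated peaks, 10.6% were strong, 43.3% stood alone and 3.89% did both. Among the 1076 strong peaks, 36.7% stood alone (95% Wilson interval 33.9 to 39.6%), against 44.1% of the 9069 weaker ones (43.0 to 45.1%). Such intervals reflect counting error alone and understate the error where neighbouring peaks depend on each other. By replicate 1 scores, the share alone was 50.8% in the lowest decile of replicated peaks and 35.9% in the highest. By replicate 2 scores it was 51.6 and 37.4%. In the deciles between them it ran from 38.1 to 46.3% over both orders.

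Even so, lone peaks were not missing from the very top. Of the 48 replicated autosomal peaks among the 100 best of both lists, 18 stood alone and 30 had a neighbour within 50 kb. Of the 100 strong peaks with the lowest sum of ranks, 39 stood alone, close to the share of all strong peaks.

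**Figure D2:**
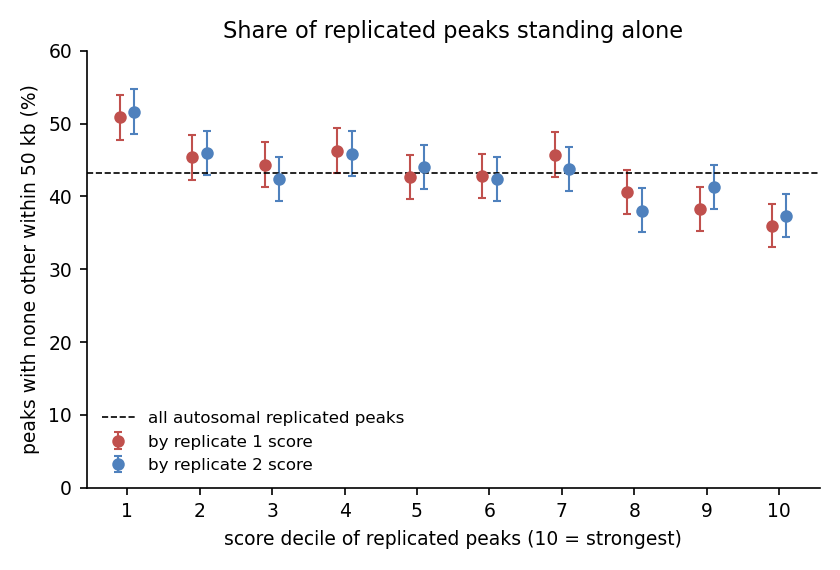
Percent of autosomal replicated peaks with no other replicated peak within 50 kb (vertical) in each score decile (horizontal, 10 is the strongest), by replicate 1 and by replicate 2 scores; bars are 95% Wilson intervals and the dashed line is 43.3%, the share over all. The lowest decile lies above the line and the highest below it in both libraries.

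The degree of isolation varied by more than an order of magnitude. The median distance to the nearest replicated peak was 117 kb (quartiles 76.3 and 202 kb). Farther than 100 kb from any other were 234 regions (59.2%), farther than 250 kb were 74 (18.7%), farther than 500 kb were 19 (4.81%), and farther than 1000 kb were 4. Just inside the limit were regions at 50.05 kb starting at 119800270 on chromosome 5 and at 50.1 kb starting at 66478728 on chromosome 18 and 38782561 on chromosome 3. Just outside were those starting at 38308967 on chromosome 5 (49.6 kb), 93961623 on chromosome 6 and 78875163 on chromosome 9 (49.3 kb each). Weaker lone peaks had a larger median distance, 133 kb (quartiles 80.7 and 240 kb). Of them, 63.8% were farther than 100 kb from any other, 23.8% farther than 250 kb and 7.18% farther than 500 kb. Each of these shares was above that of the lone strong peaks, which were thus the less isolated group.

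The 5 most isolated of the lone strong peaks were of mixed strength. The chromosome 17 region at 39979780, the strongest, was 2731 kb from its nearest neighbour. After it came the chromosome 1 region from 148894370 to 148895283, with nothing shared for 1629 kb on the nearer side and 2741 kb on the other. It scored 223 in replicate 1, barely above the threshold, and 510 in replicate 2. Next came the chromosome 4 region from 120489285 to 120490440 (1198 kb, scores 503 and 913), with widths of 1156 and 771 bp. The fourth, on chromosome 5 from 29794618 to 29795186, was 1151 kb from its neighbour and one of the narrowest, at 536 and 563 bp. Its scores were far apart, 265 in replicate 1 and 1085 in replicate 2. The fifth, on chromosome 16 from 16559867 to 16560936, was 994 kb away (scores 282 and 357). Midpoints of the peaks of these 4 regions differed between the libraries by at most 34.5 bp.

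Distance and score were not ordered together among the lone strong peaks. Replicate 1 scores had a median of 314 in the 161 regions at 50 to 100 kb from a neighbour, 351 in the 160 at 100 to 250 kb and 341 in the 74 beyond. In replicate 2 the medians were 519, 628 and 560. The middle group was thus the highest in both libraries, and the quartiles of all 3 overlapped.

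Lone strong peaks had a smaller median width than strong peaks with neighbours, in both libraries. In replicate 1 the median width was 1014 bp (quartiles 885 and 1247), against 1135 bp (917 and 1478) in the 681 strong peaks that had a neighbour within 50 kb. In replicate 2 it was 773 bp (634 and 936) against 854 bp (674 and 1106). The quartiles overlapped, and the gap lay mainly in the upper part of the range. Peaks over 1500 bp in replicate 1 made up 11.9% of the lone strong peaks (interval 9.07 to 15.5%) and 23.8% of those with neighbours (20.7 to 27.1%). Peaks over 1000 bp in replicate 2 made up 20% (16.4 to 24.2%) and 33.9% (30.5 to 37.6%). Smaller medians were not particular to strong peaks. Weaker lone peaks had a median of 793 bp in replicate 1, against 844 bp in weaker peaks with neighbours. In replicate 2 these medians were 510 and 560 bp. Regions of one pair of libraries are not replicates, and an exact sign-flip test over the 2 libraries cannot give a two-sided p below 0.5, so none is given.

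Median scores were 332 in lone and 345 in accompanied strong peaks in replicate 1, and 556 and 548 in replicate 2. Lone strong peaks thus had the lower median score in replicate 1 and the higher in replicate 2. Within each of 4 score quartiles of the strong peaks, in each library, the lone peaks had the smaller median width (8 of 8 comparisons). The differences in median width, lone minus accompanied, ran from -152 to -65.5 bp in replicate 1 and from -98 to -60 bp in replicate 2. Whether score accounts for the difference in width was not tested.

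Median widths of strong peaks also differed between steps of spacing on either side of the 50 kb limit. In replicate 1 the median width of strong peaks was 1167 bp where the nearest replicated peak was under 5 kb away, 1152 bp at 10 to 25 kb, 1076 bp at 25 to 50 kb and 1031 bp at 50 to 100 kb. In replicate 2 the medians were 882, 860, 774 and 773 bp. The medians were lowest at 100 to 250 kb, with 1004 and 750 bp, and higher again beyond 250 kb, with 1062 and 822 bp. From under 5 kb to the step at 50 to 100 kb, weaker peaks differed less, with 860 and 812 bp in replicate 1 and 580 and 524 bp in replicate 2. Beyond 250 kb, where the medians of strong peaks were higher again, those of weaker peaks were lower still, at 781 and 502 bp. How far the caller joined close summits into one wider peak was not tested.

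**Figure D3:**
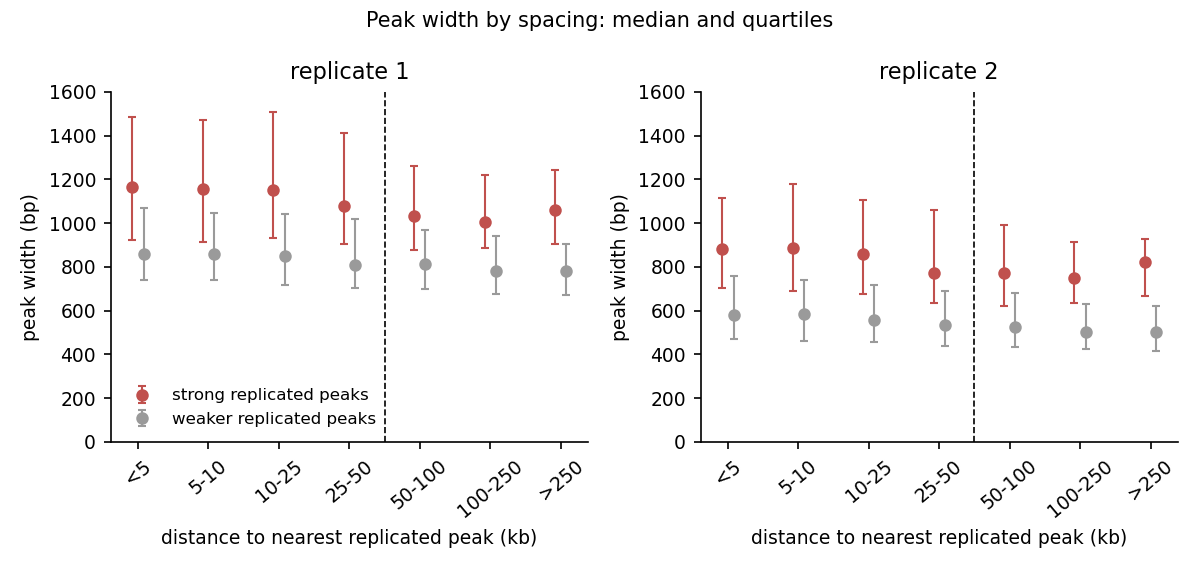
Peak width in bp (vertical, median with quartiles as bars) against the distance in kb to the nearest replicated peak (horizontal, in steps), for strong and weaker replicated peaks in each library; the dashed line is the 50 kb limit, and the 3 steps to its right hold the lone peaks. Medians of strong peaks fall from 1167 to 1031 bp in replicate 1 and from 882 to 773 bp in replicate 2 between the first and the fifth step.

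Peaks had to overlap between the libraries to be counted, which limited how far apart their midpoints could lie. Midpoints of lone strong peaks differed by a median of 55.0 bp (quartiles 26.5 and 107.5 bp), against 65.0 bp (30.0 and 124.5 bp) in strong peaks with neighbours and 58.0 bp in weaker lone peaks. Within 50 bp of each other were 45.1% of the midpoints of lone strong peaks (interval 40.2 to 49.99%) and 39.5% of those of strong peaks with neighbours (35.9 to 43.2%), intervals that overlap. The share was 44.5% in weaker lone peaks and 42.8% over all autosomal replicated peaks. The replicate 1 peak was the wider in 363 of the 395 (91.9%), and held the whole of the replicate 2 peak in 289 (73.2%). Both shares were near those of all autosomal replicated peaks, 92.4 and 73.0%.

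A small group did not pair simply. In 376 regions (95.2%) 1 peak of each library met, and in the other 19 at least one library had more. The share meeting 1 to 1 was 94.6% in strong peaks with neighbours and 96.2% over all autosomal replicated peaks. Replicate 2 was split in 18 of these, replicate 1 in 3 and both in 2. The only region with 3 replicate 2 peaks was on chromosome 5 from 68127762 to 68130042, where replicate 1 had a single peak of 2281 bp and the best replicate 2 peak spanned 393 bp. It also had the largest difference between midpoints, 896 bp. On chromosome 5 from 143578797 to 143582709 the reverse held, with 2 peaks in replicate 1 and 1 peak of 3140 bp in replicate 2. The narrowest replicate 1 peak of a lone strong region was on chromosome 13 from 99094968 to 99095511, at 421 bp (506 bp in replicate 2).

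Standing alone among replicated peaks did not mean standing alone among all peaks. The rule left out peaks found in 1 library only, and 238 of the 395 regions had at least one within 50 kb. The other 157 (39.7%, interval 35.0 to 44.6%) had no further peak of either list. Weaker lone peaks gave nearly the same share, 39.5% (38.0 to 41.0%). Another replicate 1 peak lay within 50 kb of 93 lone strong peaks (23.5%), and another replicate 2 peak within 50 kb of 199 (50.4%), from the longer list.

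These single-library peaks scored about as low as such peaks elsewhere. Near lone strong peaks their median score was 68.0 in replicate 1 (109 peaks) and 71.5 in replicate 2 (337 peaks), beside 64.1 and 71.6 for all autosomal single-library peaks. None of those in replicate 1 reached the 90th percentile of its list, and the highest was 199. In replicate 2 one did. Over all autosomal single-library peaks 0.251 and 0.874% reached it. The one in replicate 2 scored 384 on chromosome 2 from 172750445 to 172750916, at 9.33 kb from the lone strong peak from 172758948 to 172761071 (scores 485 and 1044), and this pair was named after its values were seen.

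Replicate 1 single-library peaks were denser close to lone strong peaks than farther out. Between 1 and 5 kb there were 20, or 6.33 per Mb of flank (95% exact Poisson interval 3.87 to 9.77), against 2.48 per Mb (1.99 to 3.05) between 5 and 50 kb. In replicate 2 the densities were 10.4 (7.19 to 14.7) and 8.35 per Mb (7.43 to 9.36), with intervals that overlap. Around weaker lone peaks they were 3.57 (2.94 to 4.29) and 2.47 per Mb (2.31 to 2.64) in replicate 1. In replicate 2 they were 13.2 (12.0 to 14.5) and 7.76 per Mb (7.47 to 8.05). The flanks of weaker lone peaks were thus also denser close in, in both libraries. Compared with weaker lone peaks, lone strong peaks had the higher near density in replicate 1 and the lower in replicate 2. In each library the near intervals of strong and weaker lone peaks overlapped. The intervals cover counting error only.

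**Figure D4:**
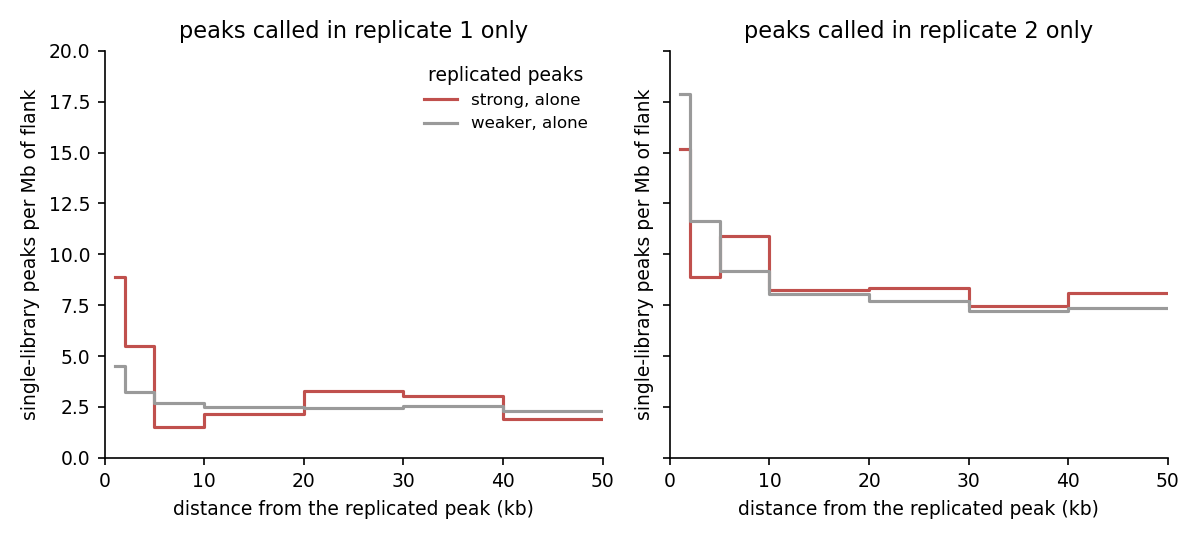
Peaks called in one library only, per Mb of flanking sequence (vertical), by distance in kb from lone strong and weaker lone replicated peaks (horizontal), for replicate 1 (left) and replicate 2 (right). Beyond 10 kb the lines for strong and weaker peaks run close together, at 1.90 to 3.29 per Mb in replicate 1 and 7.22 to 8.35 per Mb in replicate 2.

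Farther out, lone strong peaks lay in sparser surroundings than strong peaks with neighbours. Between 50 and 250 kb on each side they had a mean of 2.77 other replicated peaks (median 2, quartiles 1 and 4), or 6.92 per Mb, against 11.1 per Mb around strong peaks with neighbours. Weaker lone peaks had 5.49 per Mb. None was found in that range around 74 lone strong peaks (18.7%), and the fullest held 22. Up to 1000 kb the densities were 5.68 per Mb around lone strong peaks, 7.96 around strong peaks with neighbours and 5.18 around weaker lone peaks. The order of these groups was the same at each of the 4 ranges counted. Regions of one chromosome share such counts, and the spacing was part of the rule for lone and accompanied peaks, so only the difference between strong and weaker lone peaks lies outside it.

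**Figure D5:**
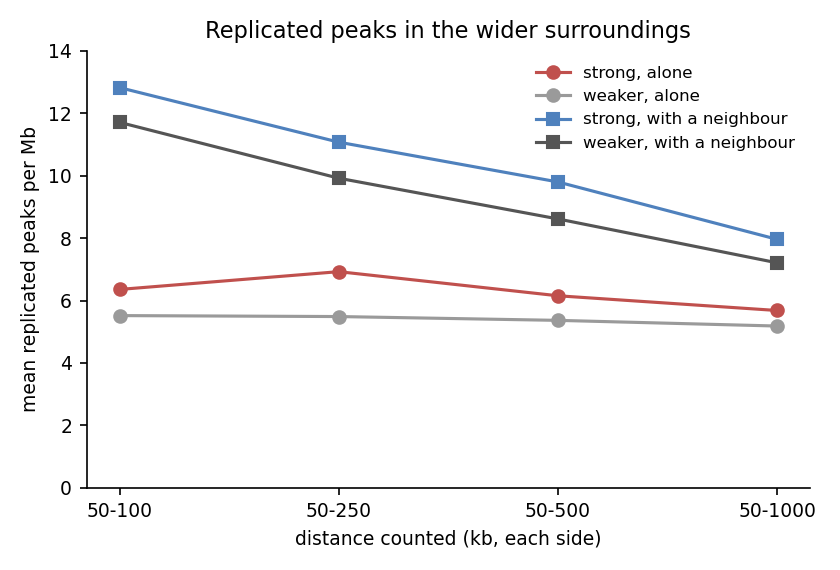
Mean number of other replicated peaks per Mb (vertical) from 50 kb out to 100, 250, 500 and 1000 kb on each side (horizontal), around strong and weaker replicated peaks with and without a neighbour within 50 kb. Lone strong peaks run from 6.35 to 5.68 per Mb, above the weaker lone peaks (5.52 to 5.18) and below both groups with neighbours.

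The nearest replicated neighbour of a lone strong peak was usually a weaker peak. It was itself strong in 45 of 395 (11.4%, interval 8.62 to 14.9%), beside 10.6% strong among all autosomal replicated peaks and 9.64% (8.76 to 10.6%) for weaker lone peaks. In 28 of these 45 the neighbour was also a lone strong peak. Among the 3995 weaker lone peaks the nearest was strong in 385, and in 251 of those it was a lone strong peak.

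Every autosome held lone strong peaks, from 10 on chromosome 17 to 34 on chromosome 5. Chromosome 4 had 31 and chromosome 3 had 29. As a share of the strong peaks of the chromosome, the values ran from 29.6% on chromosome 9 (16 of 54, interval 19.1 to 42.8%) to 50% on chromosome 15 (21 of 42, 35.5 to 64.5%). On 18 of the 19 autosomes the interval held 36.7%, the share over all. The exception was chromosome 5, with 34 of 70 (48.6%, 37.2 to 60.05%). On that chromosome 50.3% of all replicated peaks stood alone, and on chromosome 15 the share was 50.1%, and no other autosome reached these values. The share alone was lower among strong than among all replicated peaks on 18 of 19 autosomes, the exception being chromosome 4 (46.3 against 41.4%).

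A further list deposited by the authors gives positions of 1 bp with no score. A position lay in 383 of the lone strong peaks (97.0%), of which 365 held 1 and 18 held more. The share was 97.2% in strong peaks with neighbours, where 19 lacked one, and 99.7% over all autosomal replicated peaks. No weaker replicated peak lacked one. In those with 1, its median distance was 68.5 bp to the midpoint of the best replicate 2 peak and 83.5 bp to that of the best replicate 1 peak, against 89 and 111.5 bp in strong peaks with neighbours, 41 and 66.5 bp in weaker lone peaks and 46.5 and 72 bp over all. The 12 without a position were all among the 20 best of at least one list. Of the 13 lone strong peaks within those ranks, only the region split in both libraries, on chromosome 5 from 134931835 to 134933030, held positions, and it held 2. The limit of 20 was not among the planned measures. Ranks of the 19 strong peaks with neighbours that lacked a position are not given here. Others of the 12 that have not been named were on chromosome 1 from 45099650 to 45100845 (scores 991 and 942) and from 45950732 to 45951756 (1032 and 1163), on chromosome 2 from 13373096 to 13374439 (1070 and 895), on chromosome 8 from 94637294 to 94639427 (588 and 1826), and on chromosome 18 from 53786505 to 53787365 (535 and 1855). The recipe of the list is not stated in the labels.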

How the data were processed

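Pitx1 peaks came from 2 ChIP libraries of embryonic hindlimb buds. The submitters' processing notes name MACS 1.4.2, Bowtie 0.12.8, bedtools 2.16.2, CASAVA (versions 1.7 and 1.8.2) and build mm9, without roles or settings. The score of each peak is the authors' own deposited value, from a separate call per library judging by the peak names. By the caller's usual convention it follows the negative log of a p-value, but no header says so. Scores are used only to rank and filter within a list. The authors' deposited list of positions has no recipe or other value.

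Overlapping peaks were joined into unions. The code for the rule was run on simulated lists with planted scores far apart and no single-library peaks. That run checked the code only, and not how the rule behaves near its limits. Percentiles were taken over each whole list, and distances between midpoints of unions. The width and midpoint of a region in a library are those of its best peak there. Shares have 95% Wilson intervals. The regions named are the 10 with the lowest sum of ranks, the 5 most isolated, 3 on each side of each threshold, and others chosen after their values were seen (extremes of width, offset, score balance and missing positions). The members, comparisons and alternatives were chosen with earlier results of these data known. Sequence motifs, base composition, repeats and gene positions were planned and not run, because no mm9 genome or annotation was used here. The work used scipy 1.17.1, pandas 2.3.3, numpy 2.4.6 and matplotlib 3.10.9 under Python 3.11.15.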

Additional observations from a re-analysis of the deposited data

How the results depend on the processing

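No paired analysis was possible because no peak list of an input library was analysed here, and only those share replicate numbers with the ChIP libraries. The number of lone strong peaks follows the thresholds: 234 with 100 kb of isolation, 833 at the 80th percentile, 184 at the 95th and 157 when any peak of either list counts as a neighbour. Their share of strong peaks was 52.9% with 25 kb, 21.7% with 100 kb, 41.5% with reciprocal overlap of 50% and 14.6% with any peak as a neighbour. With each replicate left out in turn the number was 411 to 444 and the share 17.9 to 28.0%, from lists with more peaks. Under all 9 alternatives run the share alone was lower in strong than in weaker peaks. Lone strong peaks kept the smaller median width under all 9 alternatives run, 4 of them added after seeing the data. Keeping 1 library only repeats the main difference of that library, -121 bp in replicate 1 and -81 bp in replicate 2. The regions are then the same, so this is no further check. The remaining alternatives gave differences of -116 to -74 bp (lone minus accompanied, mean over the libraries). Their median midpoint difference was 66.0 bp at the 95th percentile, against 70.5 bp with neighbours. The share with no other peak within 50 kb was 27.6% with 25 kb of isolation, which allows replicated neighbours, and 34.4% with reciprocal overlap. A listed position lay in 98.6% at the 80th percentile and 93.5% at the 95th, alternatives added after seeing the data. Alternatives that need a genome or gene annotation of build mm9 were not run. Unknown read depth limits what single-library peaks show.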

Other observations

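Lone strong Pitx1 peaks sometimes followed one another along the chromosome with no weaker replicated peak between them. There were 22 such runs, which held 45 of the 395 regions: 21 pairs and 1 run of 3. The closest pair was on chromosome 3 within 135909913 to 135961133, with midpoints 50.2 kb apart, and the next was on chromosome 2 within 102659948 to 102714652 (53.7 kb). On chromosome 4 the region at 54482179, second by score in replicate 1, formed a pair over 55.8 kb. The pair on chromosome 16 within 57694327 to 58014281 included the second strongest lone peak and spanned 319 kb. The run of 3 lay on chromosome 4 from 26028931 to 28631943, over 2602 kb. These runs were looked for after the other results had been seen, and no test was made of their number. The like count was not made for other groups of peaks. The nearest replicated peak was strong for 11.4% of lone strong peaks, near the 10.6% strong among all autosomal replicated peaks. That is a different measure and gives no background for the runs.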
